A study of Homo sapiens with 30 samples.

Results

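The regions described here are 2397 stretches of open chromatin that were listed for RWPE1-ERG/mAKT cells and for neither RWPE1-ERG nor RWPE1-mAKT cells. RWPE1 is an immortalised line of human prostate epithelium. They were chosen by the ATAC-seq peak lists alone: a peak of the ERG/mAKT list on chromosomes 1 to 22 or X was taken if it shared no base with any peak of the ERG list or the mAKT list. They make up 2397 of 41731 such peaks, or 5.74% (95% Wilson interval 5.52 to 5.97%), and 0.801 of the 23.3 Mb that those peaks cover. The same rule gave 15167 of 62950 peaks (24.1%) for ERG cells and 9496 of 57616 peaks (16.5%) for mAKT cells. Each ATAC-seq list comes from 1 library, so no comparison between lines here has a replicate or a test, and every interval covers counting error only.

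ERG cells are RWPE1 transduced with a retrovirus that carries the ETS transcription factor ERG, mAKT cells carry myristoylated and hence constitutively active AKT, and ERG/mAKT cells carry both. The lines were kept under hygromycin and puromycin in keratinocyte serum-free medium with EGF and bovine pituitary extract, and the vector line is their control. The labels also give an ATAC-seq sample of the vector line, which is not analysed here, so whether the regions were open in vector cells is not known from these values. The ChIP-seq of RWPE1 lines used was 1 list each for ERG in ERG/mAKT cells and for ERK2 in vector and ERG cells. H3K27me3 had 1 list each in vector, ERG and ERG S96E cells, the last a phosphomimetic ERG mutant. A list of ERG in VCaP, a prostate cancer line with its own ERG fusion, was used too. RNA-seq had 3 libraries for each of 4 lines, and the deposited FPKM (fragments per kilobase of transcript, scaled to library size) is 1 pooled value per line, so it carries no error. The pooled FPKM of ERG was 0.264 in vector, 358 in ERG, 0.435 in mAKT and 328 in ERG/mAKT cells, and that of AKT1 was 58.7, 64.2, 156 and 281. The header of the mAKT list records 35688481 fragments (35.7 M), and the background level that the lists imply corresponds to about 31.8 M for the ERG and 30.0 M for the ERG/mAKT library. All 13 basal prostate epithelial genes of a marker list had an FPKM of at least 1 in some line, against 1 of 7 fibroblast and 2 of 5 leukocyte genes, whose summed FPKM was at most 2.19 and 29.4.

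In ATAC-seq a transposase inserts adapters into DNA that is not covered by nucleosomes, and stretches with many insertions are called as peaks. ERG is overexpressed through gene fusions in a large share of prostate tumours and binds DNA around the core letters GGAA, often beside sites of AP-1, the dimer of FOS and JUN proteins. AKT, the kinase downstream of PI3K, phosphorylates FOXO factors, which bind the forkhead sequence, and keeps them out of the nucleus. H3K27me3 is the histone mark of Polycomb repression.

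Sequences of 10 regions are given first, as examples picked from the regions named below. They do not represent the list: most of them hold an AP-1 heptamer, which was found in 21.2% of all the regions. All are read from the plus strand of the hg19 reference, 200 bases at the centre of each peak, and capitals mark ETS hexamers (CGGAAG or CGGAAA or AGGAAG or AGGAAA, either strand), AP-1 heptamers (TGAGTCA or TGACTCA) and forkhead heptamers (TGTTTAC, either strand). In the BTRC sequence, where none of these occurs, the capitals mark the 109 bases under an ERG ChIP-seq peak. The first 3 have high ATAC-seq enrichment, the next 3 carry an ERG peak, and the last 4 lie at genes whose FPKM in ERG/mAKT cells stood apart from the other lines.
BTRC chr10:103124589-103124788: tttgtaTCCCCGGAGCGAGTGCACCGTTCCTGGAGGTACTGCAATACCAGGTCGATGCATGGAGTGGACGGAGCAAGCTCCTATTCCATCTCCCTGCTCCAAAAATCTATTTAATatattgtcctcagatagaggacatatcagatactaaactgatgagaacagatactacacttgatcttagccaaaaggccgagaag
ADCY1 chr7:45475500-45475699: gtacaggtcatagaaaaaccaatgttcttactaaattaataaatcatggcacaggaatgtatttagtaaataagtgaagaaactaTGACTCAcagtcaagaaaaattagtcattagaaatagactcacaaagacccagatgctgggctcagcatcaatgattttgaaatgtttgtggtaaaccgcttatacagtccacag
SLITRK1 chr13:83201416-83201615: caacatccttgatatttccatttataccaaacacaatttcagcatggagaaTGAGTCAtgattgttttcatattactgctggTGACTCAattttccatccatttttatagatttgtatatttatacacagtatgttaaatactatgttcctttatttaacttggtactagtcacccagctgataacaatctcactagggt
ABALON chr20:30284044-30284243: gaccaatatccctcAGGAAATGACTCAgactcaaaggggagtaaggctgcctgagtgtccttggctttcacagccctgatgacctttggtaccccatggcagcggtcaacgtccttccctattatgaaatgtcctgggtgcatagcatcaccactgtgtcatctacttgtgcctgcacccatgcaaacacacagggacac
TRIM29 chr11:120006582-120006781: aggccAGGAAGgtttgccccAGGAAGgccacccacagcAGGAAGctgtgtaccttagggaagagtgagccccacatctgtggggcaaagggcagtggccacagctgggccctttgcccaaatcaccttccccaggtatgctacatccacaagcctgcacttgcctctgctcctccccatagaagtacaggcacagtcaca
IMMP2L chr7:110872630-110872829: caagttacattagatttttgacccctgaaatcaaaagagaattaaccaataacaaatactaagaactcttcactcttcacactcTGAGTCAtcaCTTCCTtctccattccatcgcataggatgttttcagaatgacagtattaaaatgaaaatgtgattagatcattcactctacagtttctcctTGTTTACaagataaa
CLDN1 chr3:190043874-190044073: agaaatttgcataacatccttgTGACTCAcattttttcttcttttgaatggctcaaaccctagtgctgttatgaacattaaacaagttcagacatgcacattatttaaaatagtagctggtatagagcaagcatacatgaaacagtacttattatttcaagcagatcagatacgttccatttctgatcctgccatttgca
KRT6B chr12:52849652-52849851: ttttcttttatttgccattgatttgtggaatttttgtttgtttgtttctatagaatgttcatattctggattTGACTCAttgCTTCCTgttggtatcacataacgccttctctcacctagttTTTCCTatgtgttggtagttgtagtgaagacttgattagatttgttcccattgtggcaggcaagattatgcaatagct
FN1 chr2:216298361-216298560: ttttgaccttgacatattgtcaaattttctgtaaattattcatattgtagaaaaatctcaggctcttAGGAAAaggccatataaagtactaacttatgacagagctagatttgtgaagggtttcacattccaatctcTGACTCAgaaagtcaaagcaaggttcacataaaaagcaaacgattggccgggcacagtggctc
ETS1 chr11:128328332-128328531: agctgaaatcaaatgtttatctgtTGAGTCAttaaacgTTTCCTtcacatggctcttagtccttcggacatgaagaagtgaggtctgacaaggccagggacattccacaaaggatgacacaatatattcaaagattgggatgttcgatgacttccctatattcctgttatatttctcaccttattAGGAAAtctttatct
By the GENCODE annotation the BTRC, ABALON, TRIM29, IMMP2L, CLDN1 and FN1 sequences lie in introns and the ADCY1, SLITRK1, KRT6B and ETS1 sequences between genes. Genes were assigned by the locus column of the expression table, and the nearest one can be far away: the SLITRK1 region is 1249630 bp and the ADCY1 region 138038 bp from the locus. In the ABALON sequence the ETS hexamer runs straight into the AP-1 heptamer, as 13 capital letters in a row. The SLITRK1 sequence holds 2 AP-1 heptamers and no ETS hexamer, and the TRIM29 sequence 3 ETS hexamers and no AP-1 heptamer.

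The regions listed for ERG/mAKT cells and not for ERG or mAKT cells were weak peaks. Their median fold enrichment over the local background of the library was 3.93 (quartiles 3.43 and 4.86, range 1.45 to 14.6), against 5.63 (4.36 and 7.29) for the other 39334 ERG/mAKT peaks. Their median length was 277 bp against 467 bp, their median pileup of fragments 14.4 against 29.1, and their median −log10 q 4.40 against 13.4. Of the lowest decile of ERG/mAKT peaks by fold enrichment 18.2% (17.0 to 19.4%) were found only in these cells, and of the highest decile 0.168%, or 7 of 4173. Across the deciles in between the share fell at each step. A fold enrichment of at least 5 was reached by 535 regions (22.3%) against 62.1% of the other peaks, of at least 8 by 20 regions, and of at least 10 by 1. The peaks found only in ERG cells had a median of 5.09 and those only in mAKT cells one of 4.08. These values come from the list that chose the regions and are a description.

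**Figure D1:**
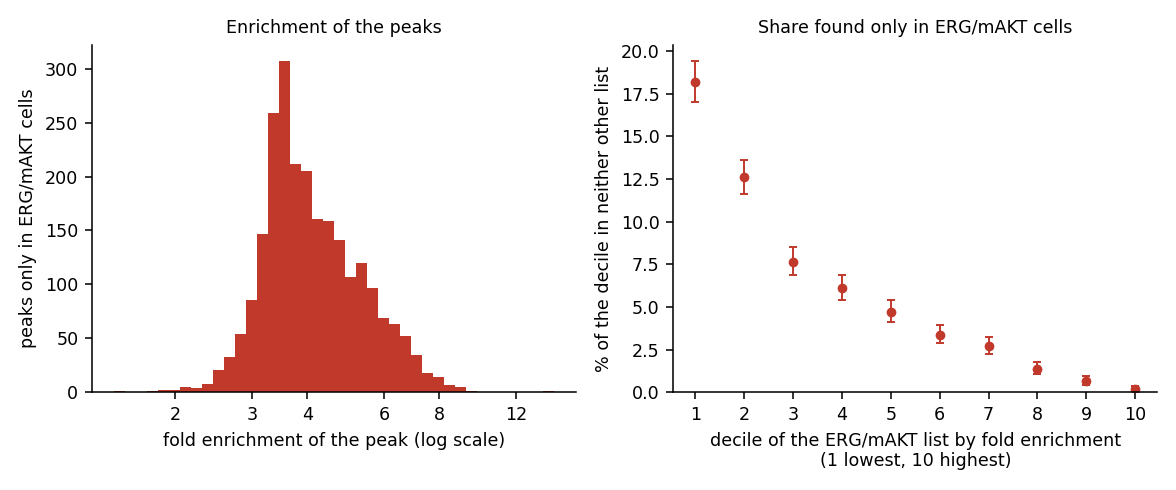
Left, number of regions found only in ERG/mAKT cells by fold enrichment of the ATAC-seq peak (log scale). Right, percentage of each decile of the ERG/mAKT list, from the lowest fold enrichment (1) to the highest (10), that was found in neither other list, with 95% Wilson intervals, falling from 18.2% to 0.168%.

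Most of the regions stood well clear of the limit that chose them. The median gap to the nearest ERG or mAKT peak was 9736 bp, 2292 regions had a gap over 1 kb, 1179 one over 10 kb, and 20 one of at most 200 bp. The nearest 3 inside the limit were a region at MIR943 (chromosome 4, 1986221 to 1986566, fold enrichment 2.95) and one at NETO1 (fold enrichment 3.60), each 4 bp from a peak, and one at VPS13D (3.61), 11 bp away. Just outside it were a peak at EHMT1 (2.76) that shared 1 bp with another list and peaks nearest to FKBP9P1 (3.05) and ZNF733P (3.36) that shared 4 bp. In all, 23 peaks stayed out by an overlap of at most 50 bp. A list holds only peaks past its threshold, so absence from it is not a measurement of closed chromatin. Among the 33000 peaks of lowest p-value in each list the same rule gave 4694 regions, and among ERG/mAKT peaks of q ≤ 1e-05 it gave 1047.

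The strongest region lay in an intron of BTRC, a substrate receptor of an SCF ubiquitin ligase, on chromosome 10 from 103124589 to 103124788. Its fold enrichment was 14.6, its pileup 219 and its −log10 q 183, while the next highest region, nearest to TRPS1, reached 9.42. It spans most of RNU2-59P, an annotated copy of the U2 small nuclear RNA on the minus strand from 103124602 to 103124792. U2 has other copies in the genome, and how reads were placed among them was not tested. An ERG peak of fold enrichment 3.32 and −log10 q 1.83 lies over the region, and the nearest peak of the other ATAC-seq lists is 2604 bp away. BTRC itself had 4.44, 3.37, 4.63 and 3.29 FPKM in vector, ERG, mAKT and ERG/mAKT cells. Small RNA genes were otherwise rare in the list, with 6 regions over one (0.250%, 0.115 to 0.545%) against 0.547% of the other peaks.

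The regions next in strength had mostly nearest genes with little or no RNA in these lines, several of them far away. The loci of TRPS1, RSPO3, CCDC39 and TEX15 lay 868528, 198521, 168659 and 41448 bp from their regions. A region nearest to CCDC39, a cilium assembly gene, reached 9.18, one nearest to ADCY1, an adenylyl cyclase, 9.05, and one 3536 bp from GCKR, the glucokinase regulator, 8.95. Regions nearest to RSPO3, a secreted activator of WNT signalling, SEC61A1, the channel subunit of the translocon, and SLITRK1, a neuronal membrane protein, reached 8.84, 8.62 and 8.50. Regions nearest to TEX15 and SAMD12 reached 8.94 and 8.54. Pileups over these 9 regions, that of TRPS1 included, ran from 27.8 at TEX15 to 43.4 at SEC61A1. CCDC39, ADCY1, GCKR, RSPO3 and SLITRK1 were at or below 0.408 FPKM in every line. TRPS1, SAMD12 and TEX15 were at or below 2.94 FPKM. SEC61A1, the highest, had 79.1, 73.8, 75.9 and 64.4 FPKM in vector, ERG, mAKT and ERG/mAKT cells. Of these 9 regions the one at GCKR carried an ERG peak, of fold enrichment 4.24 and −log10 q 0.686.

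The regions lay away from gene starts. Of them 134 (5.59%, 4.74 to 6.58%) lay within 1 kb of an annotated gene start, against 30.5% of the other ERG/mAKT peaks. More than 50 kb from one lay 34.1% against 19.3%. Distances were taken from the nearest edge of the peak, so longer peaks come within a limit more readily. Centres fell in introns in 55.3%, between genes in 36.7% and in exons in 7.97%. In this they resembled the peaks found only in ERG cells and only in mAKT cells, of which 5.93% and 5.59% were within 1 kb of a gene start. Their median GC content in 200 bp was 42.0%, against 54.0% for the other ERG/mAKT peaks and 48.0% and 47.5% for the peaks of ERG cells alone and of mAKT cells alone. By chromosome the share of ERG/mAKT peaks found only in these cells ran from 2.65% on chromosome 19 to 8.73% on chromosome 7.

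ERG occupied few of the regions. An ERG ChIP-seq peak of ERG/mAKT cells overlapped 49 of them (2.04%, 1.55 to 2.69%), against 3.96% (3.78 to 4.16%) of the other ERG/mAKT peaks. Among peaks with a fold enrichment between the quartiles of the regions the shares were 2.25% (1.55 to 3.26%) and 2.90% (2.60 to 3.23%), with intervals that overlap. The share was 6.03% for peaks that ERG/mAKT and ERG cells have in common without mAKT cells and 1.35% for peaks shared with mAKT cells alone. It was 0.870% at peaks found only in ERG cells and 0.474% at those found only in mAKT cells, although both of these sets were called in other lines than the ERG ChIP-seq. With ERG peaks of q ≤ 0.01 it was 0.375% (9 regions), against 0.661% of the other ERG/mAKT peaks. For every ChIP-seq list a longer peak meets the overlap rule more readily, and the regions were shorter, with medians of 277 against 467 bp.

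The ERG peaks at these regions were weak to moderate. They reached q ≤ 0.01 at 9 of the 49 regions. Their fold enrichment ran from 2.82 to 6.85 with a median of 4.24, against a median of 3.53 and a maximum of 55.8 over all 9104 ERG peaks, of which 448 reached q ≤ 0.01. The 49 regions had a median ATAC-seq fold enrichment of 4.44. The highest ERG peak, at 6.85, lay 1539 bp from UPP1, which encodes uridine phosphorylase, on chromosome 7 from 48126429 to 48126660. That region had a pileup of 90.4 but a fold enrichment of 2.64 over its surroundings.

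The other high ERG peaks at regions stood mostly in introns, several of them of expressed genes. The −log10 q of these ERG peaks ran from 1.51 at PXDN and IMMP2L to 2.99 at ABALON. At ABALON, a noncoding RNA gene antisense to BCL2L1, the ERG peak had a fold enrichment of 5.87 and the ATAC-seq peak one of 3.51. At TRIM29, a tripartite motif protein of stratified epithelia, they were 5.65 and 4.45. ERG peaks of 5.65 also lay over regions at ST3GAL2, a sialyltransferase, at MIR4274 and at LINC01265. Nearest to NEIL3, a DNA glycosylase 181163 bp away, and AEBP2, a cofactor of the Polycomb complex PRC2, the ERG peaks reached 5.57 and 5.48. At FAM49B and nearest to LOC105375734, 247054 bp away, they reached 5.23 and 5.11. At PXDN, an extracellular peroxidase, and IMMP2L, a mitochondrial peptidase subunit, they reached 4.94 each. Of these 12 regions, UPP1 included, 10 held an ETS hexamer in the central 200 bp, all but those at LINC01265 and LOC105375734, and at ABALON and IMMP2L it stood with an AP-1 heptamer.

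The genes at these ERG peaks took different orders across the lines. TRIM29 had 122 FPKM in vector, 56.8 in ERG, 140 in mAKT and 159 in ERG/mAKT cells, so it was lowest with ERG alone and highest with both. ABALON had 59.7, 69.3, 53.2 and 35.7, lowest with both, but its reads may be shared with the gene it overlaps. UPP1 had 234, 211, 239 and 210 FPKM, PXDN 26.0, 36.9, 20.3 and 23.5, and AEBP2 9.45, 9.76, 11.8 and 11.1. Of 28 nearest genes of ERG-bound regions with at least 1 FPKM in any line, 1 was at least 2-fold higher and 1 at least 2-fold lower in ERG/mAKT than in ERG cells, and none was in either direction over mAKT cells. The background over all genes was 2.02% higher and 2.47% lower over ERG cells, and 2.03% and 0.869% over mAKT cells.

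ERK2 was found at still fewer of the regions. The list of ERG cells overlapped 32 of them (1.34%, 0.947 to 1.88%) against 5.01% of the other ERG/mAKT peaks, and the list of vector cells 43 (1.79%) against 6.98%. At middle fold enrichment the order was the same, with 0.751% against 4.25% for ERG cells and 1.75% against 5.77% for vector cells. The peaks found only in ERG cells and only in mAKT cells had 0.270% and 0.527% with an ERK2 peak of ERG cells, and 1.35% and 2.29% with one of vector cells. No ERK2 list of ERG/mAKT cells was used here.

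The regions lay in H3K27me3 of vector cells more often than the other ERG/mAKT peaks did. A vector H3K27me3 region overlapped 295 of them (12.3%, 11.1 to 13.7%) against 5.45% of the other peaks, and an H3K27me3 region of ERG cells overlapped 111 (4.63%, 3.86 to 5.55%) against 1.63%. At middle fold enrichment these shares were 10.8% against 7.26%, and 3.92% (2.96 to 5.17%) against 2.94% (2.64 to 3.27%), the latter with intervals that overlap. In ERG S96E cells the shares were 8.01% (192 regions) and 5.34%, but at middle fold enrichment their order turned, with 6.92% against 9.32%. The peaks of ERG cells alone and of mAKT cells alone had shares as high, with 13.9% and 13.1% in vector, 5.75% and 5.12% in ERG and 12.4% and 10.8% in ERG S96E cells. The lists cover 242, 138 and 224 Mb in vector, ERG and ERG S96E cells, and no H3K27me3 list of ERG/mAKT cells was used here. The regions with vector H3K27me3 had a median fold enrichment of 3.56 in ATAC-seq, and the 98 of their nearest genes with at least 1 FPKM in any line had a median log2 ratio of −0.08 over ERG and −0.07 over mAKT cells, near that of all regions.

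**Figure D2:**
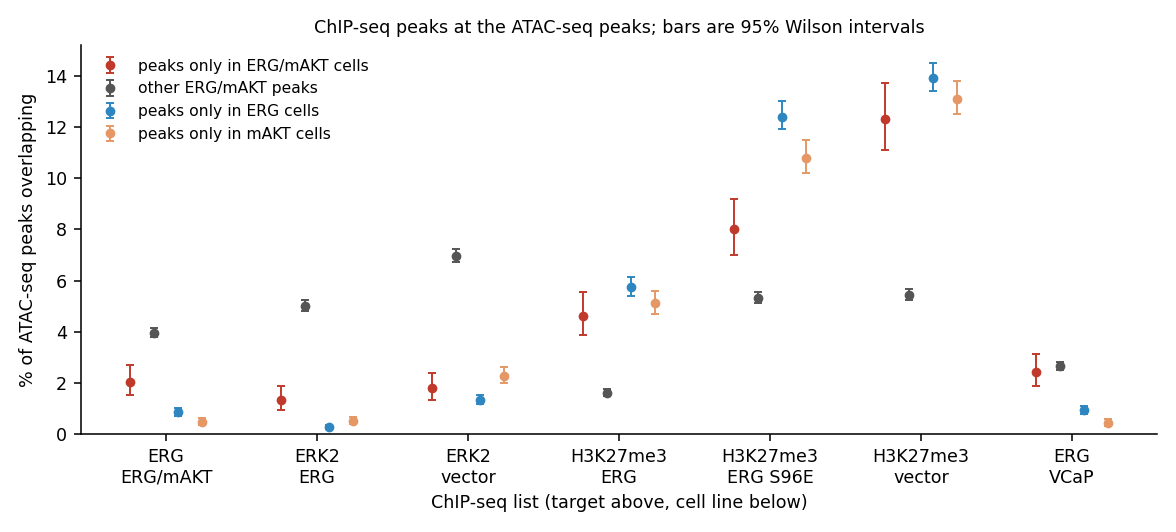
Percentage of ATAC-seq peaks that overlap a ChIP-seq peak of each list, with 95% Wilson intervals, for the regions found only in ERG/mAKT cells, the other ERG/mAKT peaks, and the peaks found only in ERG or only in mAKT cells. The regions lie below the other ERG/mAKT peaks for ERG and ERK2 and above them for H3K27me3, where the peaks of ERG cells alone and of mAKT cells alone lie as high or higher.

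Of the motifs counted, the AP-1 heptamer stood furthest above its flanks. It occurred in the central 200 bp of 509 regions (21.2%, 19.6 to 22.9%), against 2.29% of windows 1 kb to either side, a ratio of 9.26. The other ERG/mAKT peaks had it in 17.4% and their flanks in 2.76%, a ratio of 6.30. Beyond 5 kb from a gene start the order turned, with 21.7% of the regions and 24.0% of the other peaks. At middle fold enrichment it did not, with 21.8% against 13.5%, nor with both limits, at 21.9% against 17.1%. By GC content the regions lay below the other peaks in each class between 35% and 60% GC. Examples are 22.7% against 26.1% at 35 to 40% and 20.7% against 24.1% at 50 to 55%. They lay above them below 35% GC (22.8% against 19.2%) and at 60% and above (5.23% against 4.64%). The intervals overlap in every class. The peaks of ERG cells alone had it in 14.0% and those of mAKT cells alone in 18.0%. Peaks that ERG/mAKT cells share with ERG cells alone or with mAKT cells alone lay above the regions, at 25.2% and 24.9%. Of the sequences printed above, those at ADCY1, SLITRK1, ABALON, IMMP2L, CLDN1, KRT6B, FN1 and ETS1 hold it.

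The ETS hexamer was about as common in the regions as in the other ERG/mAKT peaks. It occurred in 1173 of them (48.9%, 46.9 to 50.9%) and in 39.8% of their flanks, and in 50.4% of the other ERG/mAKT peaks and 40.2% of theirs, which gave ratios of 1.23 and 1.25. It was found in 63.1% (61.0 to 65.2%) of the peaks that ERG/mAKT and ERG cells share without mAKT cells, and in 50.8% and 41.1% (40.1 to 42.1%) of the peaks of ERG cells alone and of mAKT cells alone. The full ETS octamer CCGGAAGT, common at gene starts, was found in 4 regions (0.167%) against 1.68% of the other peaks. The octamer GGAAGTGA, which shares its first letters with the hexamer, occurred in 93 regions (3.88%) against 2.38%. Of these, 28 belong to a group of repeats alike in sequence described below. Among regions without such relatives the share was 3.26%. An ETS hexamer and an AP-1 heptamer stood together in 291 regions (12.1%, 10.9 to 13.5%) against 8.77% of the other peaks. Beyond 5 kb from a gene start the share was 12.2%, inside the interval of the other peaks there (11.6 to 12.4%), and the peaks shared with ERG cells alone had 17.3%.

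The forkhead heptamer was more frequent in the regions than in the other ERG/mAKT peaks. It occurred in 182 of them (7.59%, 6.60 to 8.72%) against 3.43% (3.26 to 3.62%) of the other ERG/mAKT peaks, 4.38% of the peaks of ERG cells alone and 3.35% of those of mAKT cells alone. Peaks that ERG/mAKT cells share with ERG cells alone had it in 6.52% (5.53 to 7.68%) and those shared with mAKT cells alone in 5.78% (4.92 to 6.78%), with intervals that overlap that of the regions. In their flanks it was found in 3.21%, and in the flanks of the other peaks in 2.57%, which gave ratios of 2.36 and 1.33. The order of the regions and the other peaks held at middle fold enrichment (8.34% against 3.48%) and beyond 5 kb from a gene start (7.78% against 4.45%). It held in each of 7 classes of GC content, from 8.68% against 6.88% below 35% GC to 1.23% against 0.991% at 60% GC and above, with intervals that stand apart between 35% and 45% GC and overlap in the other classes. Among regions alike in sequence to no other region it was 7.62%. The heptamer stood beside an ETS hexamer in 85 regions, the one at IMMP2L among them. The nearest genes of the regions with it had a median log2 ratio of 0.03 over ERG and −0.07 over mAKT cells, over 80 genes.

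The remaining motifs were counted in the same windows. The SP/KLF hexamer GGGCGG was found in 7.43% of the regions against 25.6% of the other ERG/mAKT peaks, and in 7.58% and 8.00% of the peaks of ERG cells alone and of mAKT cells alone. The TEAD heptamer TGGAATG was found in 6.80% against 5.14% and the RUNX heptamer TGTGGTT in 5.21% against 4.01%, and beyond 5 kb from a gene start in 7.14% against 7.02% and 5.50% against 5.24%. CTCF sites were found in 5 regions (0.209%, 0.0891 to 0.487%) against 0.727% of the other peaks and 1.87% and 1.74% of the peaks of ERG cells alone and of mAKT cells alone. Sites of the p53 family were found in 1.13% (0.775 to 1.63%) of the regions against 1.97% of the other peaks. Peaks of ERG cells alone and of mAKT cells alone had them in 2.75% and 2.49%. The letters GGAAGGAA were found in 2.00% of the regions against 2.38%, TGACGTCA in 0.167% against 0.722% and the GRHL sequence in 3.25% against 3.38%. A window can hold several motifs, and CCGGAAGT contains an ETS hexamer.

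**Figure D3:**
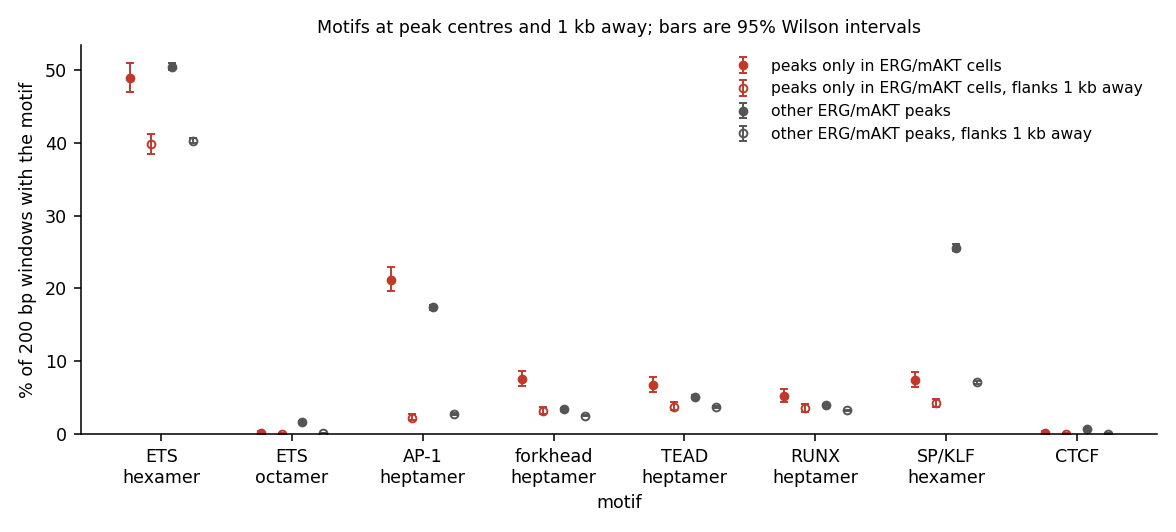
Percentage of 200 bp windows that hold each motif on either strand, at the centres of the regions found only in ERG/mAKT cells and of the other ERG/mAKT peaks (filled) and 1 kb away (open), with 95% Wilson intervals. The AP-1 heptamer rises from 2.29% in the flanks to 21.2% in the regions, and the forkhead heptamer from 3.21% to 7.59%.

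A part of the regions were copies of repeated sequence. Compared with each other over 300 bp, 402 of the 2397 regions (16.8%, 15.3 to 18.3%) matched at least 1 other at 75% identity or more over at least 150 bp, and 306 fell into 7 groups of at least 20. No repeat annotation was used. By their sequence the largest group is Alu (88 regions), the next alpha satellite of centromeres (81), the third the SVA element (33) and the fourth the start of LINE-1 (30). The fifth is an AT-rich simple repeat (26), and the remaining groups, of 26 and 22, were not named. Regions with such relatives had a median fold enrichment of 3.60, against 4.01 for the 1995 without.

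The leading sequence of the alpha satellite group is shown because its share differed by the most percentage points between the regions and the other peaks. It is 200 bases of the plus strand of hg19. Capitals mark the 29 bases at each end, which lie 171 bp apart and agree at 22 positions, the satellite's repeat unit.
alpha satellite chr3:90459374-90459573: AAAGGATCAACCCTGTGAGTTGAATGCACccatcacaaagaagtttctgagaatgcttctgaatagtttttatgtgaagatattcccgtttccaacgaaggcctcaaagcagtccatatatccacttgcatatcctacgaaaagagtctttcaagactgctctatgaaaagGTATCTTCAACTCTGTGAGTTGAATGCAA
Windows alike to the satellite sequence, at the same identity and length, made up 81 of the regions (3.38%, 2.73 to 4.18%), 0.529% of the other ERG/mAKT peaks, 0.0527% of the peaks of ERG cells alone and 0.337% of those of mAKT cells alone, and 3.19% of windows 1 kb from the regions. Windows alike to the leading sequence of the SVA group made up 33 regions (1.38%, 0.982 to 1.93%) and 5 of the other peaks (0.0127%), with 0.0462% and 0.232% of the peaks of ERG cells alone and of mAKT cells alone. Since all groups and their leading sequences were taken from the regions, these shares and those of the other groups are a description.

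The satellite regions stood apart from the rest. Of the 81, 61 lay within 1 Mb of a centromere gap of the assembly, and 28 overlapped an ERG peak of VCaP, a prostate cancer line with an ERG fusion. None overlapped an ERG peak of ERG/mAKT cells, an ERK2 peak of ERG cells or an H3K27me3 region of vector cells. Over all regions these 3 shares were 2.04%, 1.34% and 12.3%, so for ERG and ERK2 an absence among 81 regions says little. The median fold enrichment of the 81 was 3.39. The study's methods name the removal of blacklisted regions for ChIP-seq and not for ATAC-seq, and the part of that step in these regions was not tested. Of all the regions 110 (4.59%) lay within 1 Mb of a centromere gap against 1.62% of the other ERG/mAKT peaks. Among regions without a relative alike in sequence 1.35% did so. The VCaP overlap was 2.42% over all regions and 1.25% without relatives, against 2.65% of the other peaks.

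The remaining groups did not all follow that pattern. Alu-like windows were 2.46% of the regions and 1.36% of the other peaks, but 3.37% of the peaks of mAKT cells alone and 8.47% of the flanks. LINE-1-like windows were scarcer in the regions (1.17%) than in the other peaks (2.58%) or the peaks of ERG cells alone (2.22%). AT-rich repeats were 0.626% of the regions and 0.00508% of the other peaks. The 22 regions of the last group held a median of 2.00 CCAAT sequences in 200 bp, where the median over all regions was 0, and were 0.584% of the regions by their leading sequence against 0.00508% of the other peaks.

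**Figure D4:**
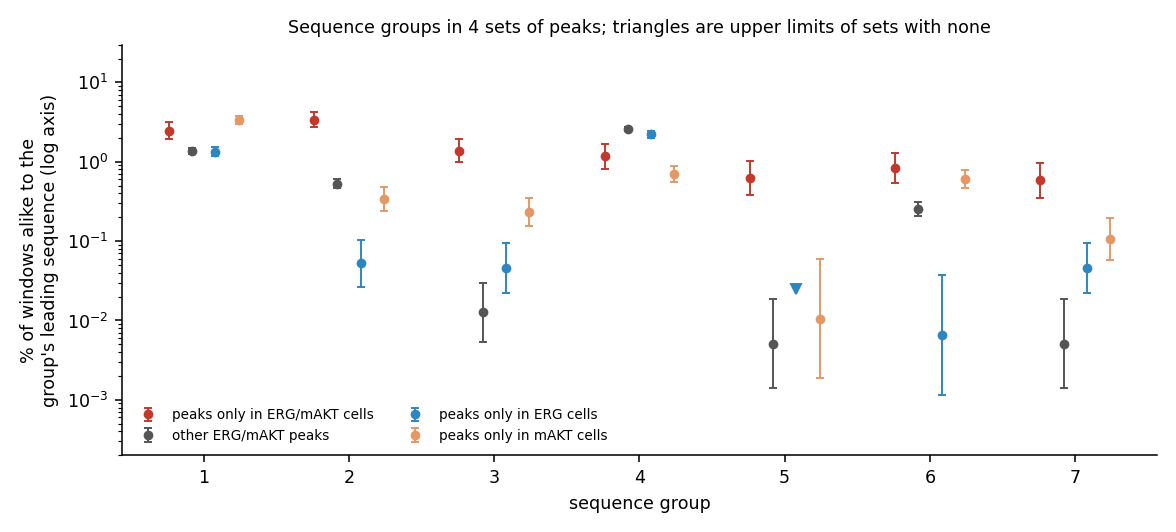
Percentage of 300 bp windows alike to the leading sequence of each of 7 sequence groups (log axis), with 95% Wilson intervals, in the regions found only in ERG/mAKT cells, the other ERG/mAKT peaks, and the peaks found only in ERG or only in mAKT cells. Triangles are upper limits where none was found. Groups 2 (alpha satellite), 3 (SVA), 5, 6 and 7 are highest in the regions, and group 4 (LINE-1) is not. All groups and their leading sequences were taken from the regions, so the order of the sets is a description.

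Some regions stood in runs of at least 3 with at most 100 kb between neighbours. There were 51 such runs with 193 regions, 12 of them beside centromere gaps with 57 regions. The largest were made of repeats: 11 regions on chromosome 11 from 48763154 to 48948853 by TRIM49B and OR4A47, 10 on chromosome 7 from 61624625 to 61832845, and 9 on chromosome X from 61706106 to 61871674, each region alike to another. TRIM49B and OR4A47 were at or near 0 FPKM in every line.

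The runs that follow were picked from the others for the known roles of their genes, after their values were seen. On chromosome 13, 3 regions from 110496962 to 110522240 lay nearest to IRS2, the insulin receptor adaptor that feeds PI3K. They lay 58048 to 83094 bp from its locus, with fold enrichments of 3.62, 4.88 and 5.97. The only ERG/mAKT peaks in that span were these 3. IRS2 had 11.6, 7.40, 8.56 and 6.15 FPKM in vector, ERG, mAKT and ERG/mAKT cells, lowest with both. At GRB10, an adaptor that binds the insulin receptor, 4 regions of fold enrichment 3.26 to 3.97 lay on chromosome 7, and its FPKM was 9.94, 8.02, 8.15 and 7.60. SOCS3, the cytokine feedback inhibitor, had 3 regions of 2.89 to 4.82 and 1.73, 2.12, 1.43 and 0.970 FPKM. The span of AEBP2 held 3 regions of 4.03 to 6.61, 1 of them with the ERG peak named above, and no other ERG/mAKT peak. Runs of 3 also lay at CXCL8 and RASSF6, NFKBIZ, LIMA1, TACC2, and CDKN2A and MTAP, with fold enrichments between 3.19 and 6.50. Other runs lay at TTC34, CFAP46, MAD1L1, BBS9 and ABCA13, with fold enrichments between 2.15 and 7.67.

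The nearest genes of the regions had median ratios close to those of all genes. The 2397 regions had 1965 nearest genes, 1173 regions lay inside the locus of theirs (48.9%, against 62.5% of the other peaks) and 1807 within 50 kb. Of the genes, 976 (49.7%) had at least 1 FPKM in any line, close to the 48.2% of all genes, and ratios were taken over these as log2 of FPKM plus 1. The median ratio of ERG/mAKT cells was −0.05 over ERG, −0.07 over mAKT and −0.07 over vector cells, where the medians of all 12665 such genes were −0.04, −0.07 and −0.06. A change in FPKM of a gene can stem from fewer cells that make it or less RNA per cell, which these bulk libraries cannot tell apart.

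Few of the nearest genes differed by 2-fold. Of the 976 genes, 17 (1.74%, 1.09 to 2.77%) were at least 2-fold higher in ERG/mAKT than in ERG cells and 30 (3.07%, 2.16 to 4.35%) at least 2-fold lower. The background over all genes, 2.02% higher and 2.47% lower, lies inside both intervals. Over mAKT cells 9 (0.922%, 0.486 to 1.74%) were higher, below the background of 2.03%, and 7 (0.717%, 0.348 to 1.47%) lower, near that of 0.869%. Over vector cells 18 (1.84%, 1.17 to 2.90%) were higher, beside 2.92%, and 19 (1.95%, 1.25 to 3.02%) lower, beside 1.07%. Among the 615 nearest genes within 50 kb that reached 5 FPKM in some line, ERG/mAKT cells were highest in 96 (15.6%) and lowest in 257 (41.8%), against 15.4% and 39.7% of all 9313 genes at that level. ERG/mAKT cells were at least 2-fold over each other line in 1 of the 615 (0.163%), PI3, and at least 2-fold under each in 1, FN1. Of all 9313 genes 66 (0.709%) were so far over and 17 (0.183%) so far under.

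PI3, CLDN1 and KRT6B were among the 12 genes that stood furthest above the other lines. PI3 (elafin), an epidermal protease inhibitor, had 37.3 FPKM in vector, 43.0 in ERG, 49.6 in mAKT and 107 in ERG/mAKT cells, with a region of fold enrichment 4.30 lying 6620 bp from its locus. CLDN1, a tight junction protein, had 5.11, 13.3, 10.7 and 26.3, with the region printed above 3613 bp away. KRT6B, a keratin of stressed and suprabasal epithelium, had 5.26, 6.15, 14.2 and 22.6, with its region, of fold enrichment 5.07, 3726 bp away. Each was lowest in vector cells, and KRT6B was higher in both lines with mAKT than in either line without it.

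Other genes were higher by log2 ratios of at most 0.70 over the next line, at METRNL. By the same measure PI3 had 1.10, CLDN1 0.93 and KRT6B 0.64. METRNL, a secreted factor, had 5.45, 8.41, 8.36 and 14.3 FPKM in the same order and 2 regions, 1 of them 221 bp and the other 0 bp from its locus, with fold enrichments of 3.07 and 3.58. ID3, an inhibitor of helix-loop-helix factors, had 24.3, 37.6, 26.3 and 49.3, and AHR, the aryl hydrocarbon receptor, 7.82, 5.98, 8.46 and 12.1 with a region of 6.29. EP300, the histone acetyltransferase, held a region of 6.60 in an intron and had 4.31, 4.09, 4.28 and 6.38 FPKM. SECTM1, ARVCF, CDC42EP1 and DMD also stood highest, by log2 ratios between 0.36 and 0.58 over the next line. MIR33B was listed at 0, 0, 16.2 and 25.6, a value for a short RNA inside another gene that polyA libraries do not measure reliably. None of these genes had an ERG peak on its regions.

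FN1 and DKK1 stood furthest below the next lowest line. FN1 (fibronectin) had 83.7 FPKM in vector, 228 in ERG, 53.4 in mAKT and 23.8 in ERG/mAKT cells, a log2 ratio of −3.20 over ERG cells, with a region of fold enrichment 4.70 in an intron. DKK1, a secreted WNT antagonist, had 92.9, 67.8, 91.5 and 34.3, and TFPI2, a protease inhibitor of the matrix, had 52.1, 42.7, 43.2 and 22.5. SERPINE2, another such inhibitor, was highest in vector cells at 32.6 and lowest in ERG/mAKT cells at 12.4. KCNMA1, a potassium channel, had 18.4 against 29.7 to 46.4 in the other lines, and NRG1, a ligand of ERBB receptors, 3.25 against 5.47 to 8.87. ETS1, a relative of ERG, had 21.0, 25.0, 20.7 and 13.5, with regions of 5.72 at 109 bp and 5.30 at 115659 bp from its locus. MIR6807, another short RNA entry, was listed at 13.1, 71.7, 26.4 and 6.35. The named genes were taken from both ends of the ratios, so the presence of both directions was fixed by that choice.

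**Figure D5:**
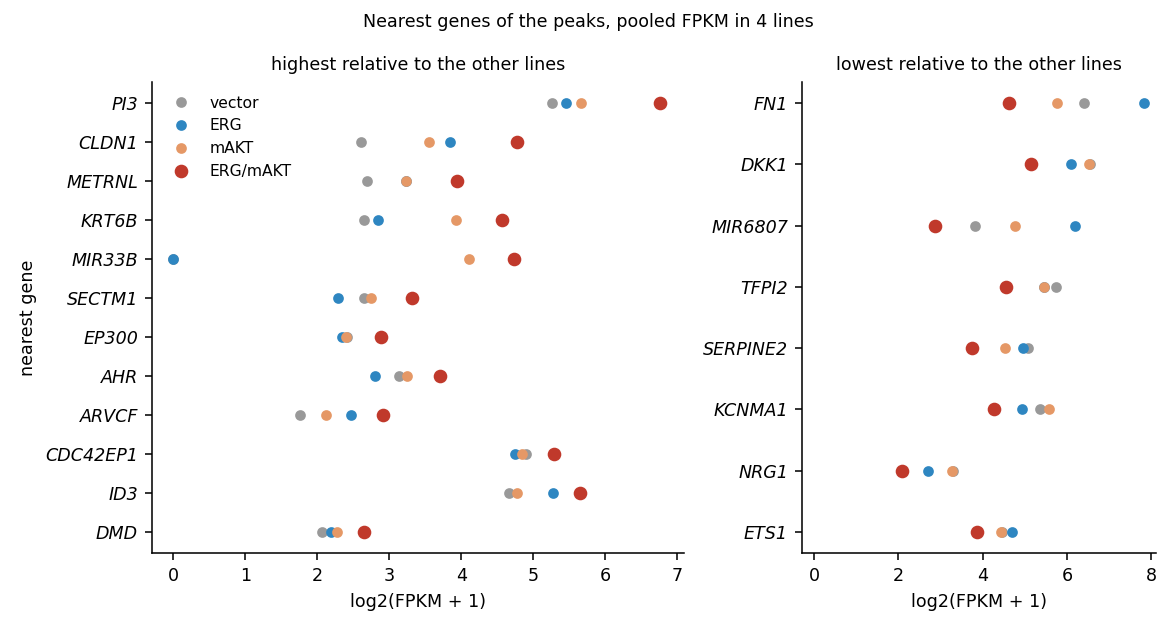
Pooled FPKM, as log2 of FPKM plus 1, in vector, ERG, mAKT and ERG/mAKT cells for the nearest genes of the regions within 50 kb that stood most above (left, 12 genes) and most below (right, 8 genes) the other 3 lines. Each point is 1 pooled value with no error; PI3 is the gene highest above and FN1 among the furthest below the other lines.

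Genes of marker and pathway lists were looked up among the nearest genes. Of 133 genes on 10 lists of cell type markers, PI3K and AKT signalling, ETS factors and AP-1 subunits, 18 (13.5%) were nearest to a region, against 7.49% of all genes, without regard to the length of the loci. Of the mesenchymal list VIM, FN1, CDH2 and ZEB2 were among them. VIM (vimentin) had 737, 1056, 366 and 288 FPKM in vector, ERG, mAKT and ERG/mAKT cells and CDH2 (N-cadherin) 3.04, 7.38, 0.610 and 0.666, while ZEB2 was at or below 0.0989. Over the 10 expressed genes of that list, 4, 6 and 1 were at least 2-fold lower in ERG/mAKT than in vector, ERG and mAKT cells, beside 1.07%, 2.47% and 0.869% of all genes, with medians of −0.97, −1.44 and −0.22 against −0.06, −0.04 and −0.07 for all genes.

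Among epithelial lists the basal genes LAMA3, LAMB3 and DST were nearest to a region. The laminin chains LAMA3 and LAMB3 were highest with ERG alone, at 75.9 and 222 FPKM against 35.2 and 99.1 in ERG/mAKT cells, and the plakin DST lowest there, at 13.3 against 33.3. The basal list as a whole had a summed FPKM of 10603, 4900, 10714 and 10308 in vector, ERG, mAKT and ERG/mAKT cells. Of its 13 genes 1, 4 and 1 were at least 2-fold higher in ERG/mAKT than in vector, ERG and mAKT cells. In the same order 4, 3 and 3 were at least 2-fold lower, beside 1.07%, 2.47% and 0.869% of all genes. The median log2 ratios were −0.21, −0.01 and −0.05. KRT10 and FLG were the squamous genes nearest to a region, and FLG was at or below 0.0393 FPKM in every line. Over the 14 expressed squamous genes, 9, 10 and 4 were at least 2-fold higher in ERG/mAKT than in vector, ERG and mAKT cells, beside 2.92%, 2.02% and 2.03% of all genes. The luminal list had a summed FPKM of 1932, 4744, 2228 and 2732 in the 4 lines. Of its 10 expressed genes 0 were at least 2-fold higher or lower than in ERG cells, with a median log2 ratio of −0.30. Over vector and mAKT cells the medians were 0.48 and 0.21, with 2 and 0 genes at least 2-fold higher and 0 lower. The luminal gene TMPRSS2, with 2 regions of 5.49 and 6.06 beyond 50 kb, was at or below 0.0536 FPKM in every line. Of 15 endothelial genes 2 were expressed, and EGFL7 and VWF lay nearest to a region, VWF at or below 0.0570 FPKM. The leukocyte gene PTPRC, at or below 0.00391 FPKM, had a region of 5.21 in an intron.

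In the signalling lists IRS2 and SGK1 of 24 PI3K, AKT and FOXO genes were nearest to a region. SGK1, a kinase related to AKT, had 15.7, 32.7, 14.7 and 25.3 FPKM in vector, ERG, mAKT and ERG/mAKT cells, high in both lines with ERG, and a region of fold enrichment 3.98 at an annotated start. Over that list 2 of 24 genes were at least 2-fold higher and 1 lower in ERG/mAKT than in ERG cells, beside 2.02% and 2.47% of all genes. ETS1, ETV1 and EHF were the ETS factors, of 17, with a region. ETV1 had 1.44, 0.789, 1.27 and 0.600 FPKM and a region of 6.25, 89891 bp from its locus, and EHF, an epithelial ETS factor, 3.74, 3.63, 2.35 and 4.48 with a region of 3.83 that holds an AP-1 and a forkhead heptamer. None of 9 AP-1 genes was nearest to a region, and 1 of the 8 expressed was at least 2-fold lower in ERG/mAKT than in ERG cells.

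Ratios of the nearest genes were also taken by what the regions carried. Median log2 ratios over ERG cells ran from −0.19 for the 22 expressed genes at H3K27me3 of ERG cells and −0.17 for the 54 at regions within 1 kb of a gene start to 0.03 for the 80 at a forkhead heptamer. Over mAKT cells they ran from −0.09 to −0.03. The 305 genes with 2 or more regions, of which 137 were expressed, had medians of −0.11 over ERG, −0.05 over mAKT and −0.08 over vector cells, and 8 of these were at least 2-fold lower than in ERG cells against 1 higher. The 223 expressed genes at regions of fold enrichment 5 or more had a median of −0.07 over both, with 3 higher and 9 lower than in ERG cells. The background of all genes was again 2.02% higher and 2.47% lower.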

How the data were processed

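Peak lists were deposited by the authors as MACS2 output, with a pileup signal, a fold enrichment ratio, a −log10 p-value and a −log10 q-value per peak. Per the study's methods, reads were aligned to hg19 with Bowtie2, duplicates were removed with Picard, and ATAC-seq peaks were called in broad mode. The lists show 1 library per line and no control for ATAC-seq. ChIP-seq DNA was pooled from independent experiments. FPKM values were deposited by the authors as a Cuffdiff table after TopHat2, pooled over 3 libraries per line, with 0 columns of single samples. Its columns of fold changes, test statistics and p-values were not used.

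Peaks overlapped if they shared 1 bp. Genes were assigned by the locus column, the nearest first, and 7 genes with a failed status are in that table. Ratios are log2 of FPKM plus 1, over genes with at least 1 FPKM in any line. A gene counted as called at 2-fold. Shares have 95% Wilson intervals. Depth of the ERG and ERG/mAKT ATAC-seq libraries is an estimate from the background that the lists imply, and depth limits which weak peaks a list holds. Motifs were counted in 200 bp at peak centres and 1 kb to either side on GRCh37, on both strands, gene annotation was GENCODE release 44 mapped to GRCh37, and sequences were compared with BLAST 2.17.0 (at least 75% identity over 150 bp of 300). Runs joined regions within 100 kb.

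The regions named are the 10 of highest fold enrichment, the 12 with the highest ERG peaks and the largest runs. The genes named are the nearest genes within 50 kb and with at least 5 FPKM that stood furthest above (12) or below (8) the other lines, those with most regions, which include the unexpressed ZNF733P (17 regions), SPIN4 (9), CMSS1 (5) and SDK1 (5), and all list genes nearest to a region. Regions, lists and rules were chosen with earlier results of these data known. Code was tested on simulated data. Alternatives were other overlaps, thresholds, windows, pseudocounts and filters, and, added later, subsets of the regions. All steps ran in Python 3.11.15 with pandas 2.3.3, pysam 0.24.0 for sequence, networkx 3.6.1 for groups, numpy 2.4.6 and matplotlib 3.10.9.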

Additional observations from a re-analysis of the deposited data

Results flagged for a closer look

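A peak list attached to the ERG ChIP-seq of LY294002-treated VCaP cells, used in no comparison above, holds 55889 peaks whose names read as ATAC-seq of RWPE1. It overlapped 346 of the 2397 regions, or 14.4% (95% Wilson interval 13.1 to 15.9%), against 91.9% (91.7 to 92.2%) of the other ERG/mAKT peaks. Its label and its peak names differ, so which sample it comes from is not settled here and its part in the results was not tested. By sequence group it overlapped 14 of the 33 SVA, 13 of the 30 LINE-1, 12 of the 88 Alu and 8 of the 81 alpha satellite regions.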

How the results depend on the processing

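Of 52 values under an alternative for 11 results, 30 stayed within the 95% interval of the value reported, 3 numbers of regions (2287, 2292 and 2844) stayed within 1.5 times theirs, 19 moved and 0 reversed in sign. Only the median log2 ratios could reverse in sign. Orders between the regions and the other peaks, some of which turned above, are not part of this count. The number of regions was 1047 with ERG/mAKT peaks of q ≤ 1e-05 and 4694 among the 33000 peaks of lowest p-value per list. The median fold enrichment was 5.05 at that q-value and 4.01 among regions alike in sequence to no other region. The share with an ERG peak was 0.375% for ERG peaks of q ≤ 0.01, that with H3K27me3 of ERG cells 3.05% for regions of at least 2-fold enrichment, and that with ERK2 of ERG cells 1.96% with peaks within 500 bp and 0.751% at middle fold enrichment. The AP-1 heptamer was found in 29.6% of whole peaks, 11.1% of 100 bp windows and 24.2% of regions without relatives, and the ETS hexamer in 61.0%, 29.9% and 52.4%. With all genes of the table, the median log2 ratio of nearest genes was 0.00 over ERG, 0.00 over mAKT and 0.00 over vector cells. The share at least 2-fold higher than in ERG cells was 3.18% with a pseudocount of 0.1 and 0.866% with all genes. Longer windows hold more motifs and genes at 0 have a ratio of 0, while the cause of the other moves was not tested.

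No paired analysis was possible because the RNA-seq values are pooled per line and each ATAC-seq and ChIP-seq list comes from 1 library. For the same reason no library was left out, and differences between libraries and between lines cannot be told apart. Peak lists give no signal where no peak was called, and the ERG/mAKT list is the shortest of the 3, with 42081 peaks.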

Other observations

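Outside chromosomes 1 to 22 and X, 46 of 350 ERG/mAKT peaks (13.1%, 95% Wilson interval 10.00 to 17.1%) overlapped no peak of the ERG or mAKT lists.

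There were 6 small RNA genes under regions. Besides RNU2-59P these were a snoU13 copy on chromosome 3 (region fold enrichment 4.56), a Y RNA copy on chromosome 21 (4.35), RN7SL414P on chromosome 2 (5.10) and 2 annotated microRNAs (3.18 and 3.34).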
